A study of Mus musculus with 46 samples.

Results

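Mki67, Top2a and the 8 genes of the condensin subunits were examined in microglia, the macrophages that live in brain tissue, of male C57BL/6 mice. These 10 genes were taken by name from a list and were all found among the 20999 genes of the deposited count and TPM tables. RNA was sequenced in 5 groups of 2 libraries, each from 200000 sorted cells. Adult microglia came at 90 days from wild-type mice without treatment. Sorted microglia of pups on postnatal day 8 (PND8) and of adults during repopulation came from mice with a reporter of Ki67 (genotype Ki67-rfp) and were labelled Ki67-negative or Ki67-positive, fractions that the header of the count table calls Ki67Low and Ki67High. Repopulating microglia were taken at 75 days: the mice had received PLX5622, an inhibitor of CSF1R that depletes microglia, for 17 days from day 55, followed by 3 days without it. Adult RNA libraries are also labelled Ki67-negative, although the genotype given for them has no reporter. Promoter marks came from 20 peak lists of wild-type-labelled mice. H3K27ac, a histone acetylation found at active regulatory elements, was profiled in 6 groups of 2: adult at 60 and 65 days, both Ki67 classes at PND8, both at 90 days after 4 weeks of the demyelinating toxin cuprizone, and repopulating Ki67-positive at 90 days. The repopulating mice used for H3K27ac had received PLX5622 for 17 days from day 70, followed by 3 days without it. Cells for immunoprecipitation were fixed and sorted with an antibody to Ki67. Rpb2, a subunit of RNA polymerase II, had 2 adult lists, labelled as 60 and 65 days of age although both titles name PND60, and 1 of PND8 Ki67-positive cells. The file headers of the adult H3K27ac and Rpb2 lists carry the word Vehicle, while their labels give no treatment. H3K4me3, a mark of promoters, had 2 adult lists at 75 days, and open chromatin (ATAC-seq) had 1 list each of adult cells at 80 days, PND8 Ki67-positive cells and repopulating Ki67-positive cells at 75 days. Adult groups of different assays thus differ in age. For the ATAC-seq lists of Ki67-positive cells, the titles name the reporter although the genotype label is wild type. How many mice went into a library is not given in the sources used here.

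The products of these genes shape the mitotic chromosome. Ki67 coats the surface of mitotic chromosomes and keeps them apart, and it marks cells that are in the cell cycle. Topoisomerase II alpha, encoded by Top2a, passes one DNA duplex through another and removes tangles before chromosomes separate. Condensins are rings of the SMC proteins Smc2 and Smc4, closed by a kleisin and bound by a pair of HEAT-repeat subunits, and they fold chromatin into loops. Condensin I holds the kleisin Ncaph with Ncapd2 and Ncapg and reaches chromosomes after the nuclear envelope breaks down, whereas condensin II holds Ncaph2 with Ncapd3 and Ncapg2 and is nuclear through interphase. Microglia divide in the young brain and when they refill an emptied one, and rarely in the undisturbed adult brain.

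The RNA libraries held 6865903 to 10287876 counts over genes, and levels are given in CPM, counts scaled to the total of the library. A count of 3, the floor used here, is worth 0.275 to 0.457 CPM. The lowest count of any of the 10 genes was 40, for Ncapg in an adult library, so all 10 passed the filter on low counts. All 8 microglial markers examined were found, with summed levels of 7014 to 9063 CPM over the 10 libraries. Markers of neural progenitors summed to 10.9 to 12.6 CPM in adult and 79.7 to 223 CPM elsewhere, almost all of it Nes at 77.1 to 219.5 CPM outside adult, while Sox2, Eomes and Dcx were at most at 0.881 CPM in any library. Markers of border macrophages summed to 571.4 to 843.4 CPM at PND8, 57.7 to 66.0 CPM in adult and 25.9 to 42.3 CPM in repopulation, most of it Mrc1. Markers of endothelial cells summed, at PND8, to 73.6 to 75.9 CPM in Ki67-negative against 40.0 to 40.2 in Ki67-positive cells. The sums were 56.1 to 63.3 against 37.0 to 40.3 in repopulation and 79.1 to 79.3 in adult. At PND8 most of this was Pecam1, at 65.6 and 69.8 against 33.5 and 33.3 CPM. Flt1 went the other way there, at 1.11 and 0.826 against 2.20 and 2.20. In repopulation Pecam1 read 33.7 and 25.45 against 20.8 and 16.8 CPM, and Kdr 26.3 and 27.9 against 17.2 and 18.9. Cldn5 was at most at 0.275 CPM in any library. Markers of monocytes or neutrophils summed to 30.3 to 69.7 CPM in adult and 2.94 to 9.26 elsewhere. Those of the oligodendrocyte lineage summed to 45.1 to 84.2 CPM, of erythroid cells to 0.625 to 7.05 CPM and of lymphocytes to at most 1.10 CPM, with Cd3e at 0 in both libraries of all groups except adult. Their part in the results was not tested. In bulk samples such as these, fewer expressing cells and less RNA per cell cannot be told apart. The sort selected on Ki67 itself, so the difference of Mki67 between Ki67-positive and Ki67-negative cells checks the labels and is no finding.

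Promoter sequences of RefSeq (build GRCm38.p6, 250 bases before to 50 bases after the start) were matched for 9 of the 10 genes. They were searched on both strands for 3 words of cell cycle promoters: the CHR element (TTTGAA or TTTAAA), which is bound by the DREAM complex and by B-Myb with FoxM1, the CCAAT box (CCAAT) of the factor NF-Y, and E2F-type sites (TTCCCGC or TTGGCGC). Among 32851 such promoters in the table, 27.6% held a CHR word, 37.4% a CCAAT word, 10.7% both and 6.81% an E2F-type word. A match is a run of letters and not a shown site. The promoters of 6 genes are given because the results set them apart: Mki67, Top2a and Ncapg2, whose starts lack a reproducible H3K27ac region in adult cells, Ncapg as the condensin I counterpart of Ncapg2, and the kleisins Ncaph and Ncaph2, whose RNA is already present in adult cells. Capitals mark the 3 kinds of word on either strand.
Mki67, chr7:135716330-135716629, minus strand: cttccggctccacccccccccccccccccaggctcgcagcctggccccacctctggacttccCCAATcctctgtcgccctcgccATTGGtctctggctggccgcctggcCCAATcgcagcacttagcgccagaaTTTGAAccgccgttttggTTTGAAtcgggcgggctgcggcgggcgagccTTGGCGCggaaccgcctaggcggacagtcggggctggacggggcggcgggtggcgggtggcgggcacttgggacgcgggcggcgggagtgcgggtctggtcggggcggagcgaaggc
Top2a, chr11:99024140-99024439, minus strand: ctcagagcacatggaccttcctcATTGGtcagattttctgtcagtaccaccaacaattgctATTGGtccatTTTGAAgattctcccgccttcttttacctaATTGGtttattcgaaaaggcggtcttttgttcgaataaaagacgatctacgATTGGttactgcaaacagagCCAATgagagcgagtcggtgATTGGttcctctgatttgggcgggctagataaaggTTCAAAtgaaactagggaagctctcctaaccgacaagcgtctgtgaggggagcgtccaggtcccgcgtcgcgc
Ncapg, chr5:45669675-45669974, plus strand: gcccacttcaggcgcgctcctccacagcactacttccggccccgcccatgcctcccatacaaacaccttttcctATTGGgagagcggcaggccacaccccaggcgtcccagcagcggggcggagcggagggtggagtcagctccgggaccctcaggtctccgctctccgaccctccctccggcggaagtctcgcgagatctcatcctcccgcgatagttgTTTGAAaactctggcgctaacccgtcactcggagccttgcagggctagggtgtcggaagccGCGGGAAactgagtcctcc
Ncapg2, chr12:116405186-116405485, plus strand: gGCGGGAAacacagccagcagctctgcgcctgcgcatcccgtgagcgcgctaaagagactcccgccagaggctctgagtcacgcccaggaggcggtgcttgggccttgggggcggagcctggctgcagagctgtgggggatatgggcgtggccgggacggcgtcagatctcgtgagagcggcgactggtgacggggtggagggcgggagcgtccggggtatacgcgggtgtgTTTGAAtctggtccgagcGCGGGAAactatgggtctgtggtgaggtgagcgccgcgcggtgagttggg
Ncaph, chr2:127133905-127134204, minus strand: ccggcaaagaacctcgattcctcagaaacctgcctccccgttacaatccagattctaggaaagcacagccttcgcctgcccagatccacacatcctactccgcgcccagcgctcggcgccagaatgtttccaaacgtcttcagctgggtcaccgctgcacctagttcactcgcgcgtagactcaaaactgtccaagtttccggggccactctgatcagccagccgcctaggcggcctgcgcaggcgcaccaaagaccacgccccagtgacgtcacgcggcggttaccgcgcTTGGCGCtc
Ncaph2, chr15:89355469-89355768, plus strand: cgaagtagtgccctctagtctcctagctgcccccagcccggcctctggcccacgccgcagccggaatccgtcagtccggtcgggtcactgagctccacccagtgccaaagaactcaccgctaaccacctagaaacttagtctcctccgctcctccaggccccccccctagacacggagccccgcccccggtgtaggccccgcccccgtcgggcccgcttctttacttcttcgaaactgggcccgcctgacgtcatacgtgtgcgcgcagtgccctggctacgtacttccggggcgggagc

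Mki67 had 2 CHR words, both TTTGAA, with 3 CCAAT words and 1 E2F-type word. Top2a had 2 CHR words and 6 CCAAT words. Smc2 had 2 CHR words with 1 CCAAT word. Ncapd2 had 1 CHR word with 3 CCAAT words and 1 E2F-type word, and Ncapg had 1 of each kind. These 5 genes therefore held both CHR and CCAAT words. Ncapg2 held 1 CHR word and 2 E2F-type words, one of them on the start itself, and no CCAAT word. The kleisin Ncaph held only 1 E2F-type word, Ncapd3 at its main start likewise only 1, and Ncaph2 none of the 3 kinds.

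Adult microglia held little RNA of Mki67, Top2a and most condensin genes, and every gene of the set was higher in the 4 other groups. Mki67 read 13.4 and 11.0 CPM in adult, 242 and 282 in PND8 Ki67-negative, 919.6 and 1107 in PND8 Ki67-positive libraries, then 336 and 463 in repopulating Ki67-negative, and 930.1 and 1087 in repopulating Ki67-positive libraries. Top2a read 4.86 and 9.78 CPM in adult, 204 and 267 in PND8 Ki67-negative, 461 and 567 in PND8 Ki67-positive libraries, then 195 and 285 in repopulating Ki67-negative, and 426 and 524 in repopulating Ki67-positive libraries. Both genes were lowest in adult and highest in Ki67-positive cells, and Ki67-negative cells of either setting lay well above adult.

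**Figure D1:**
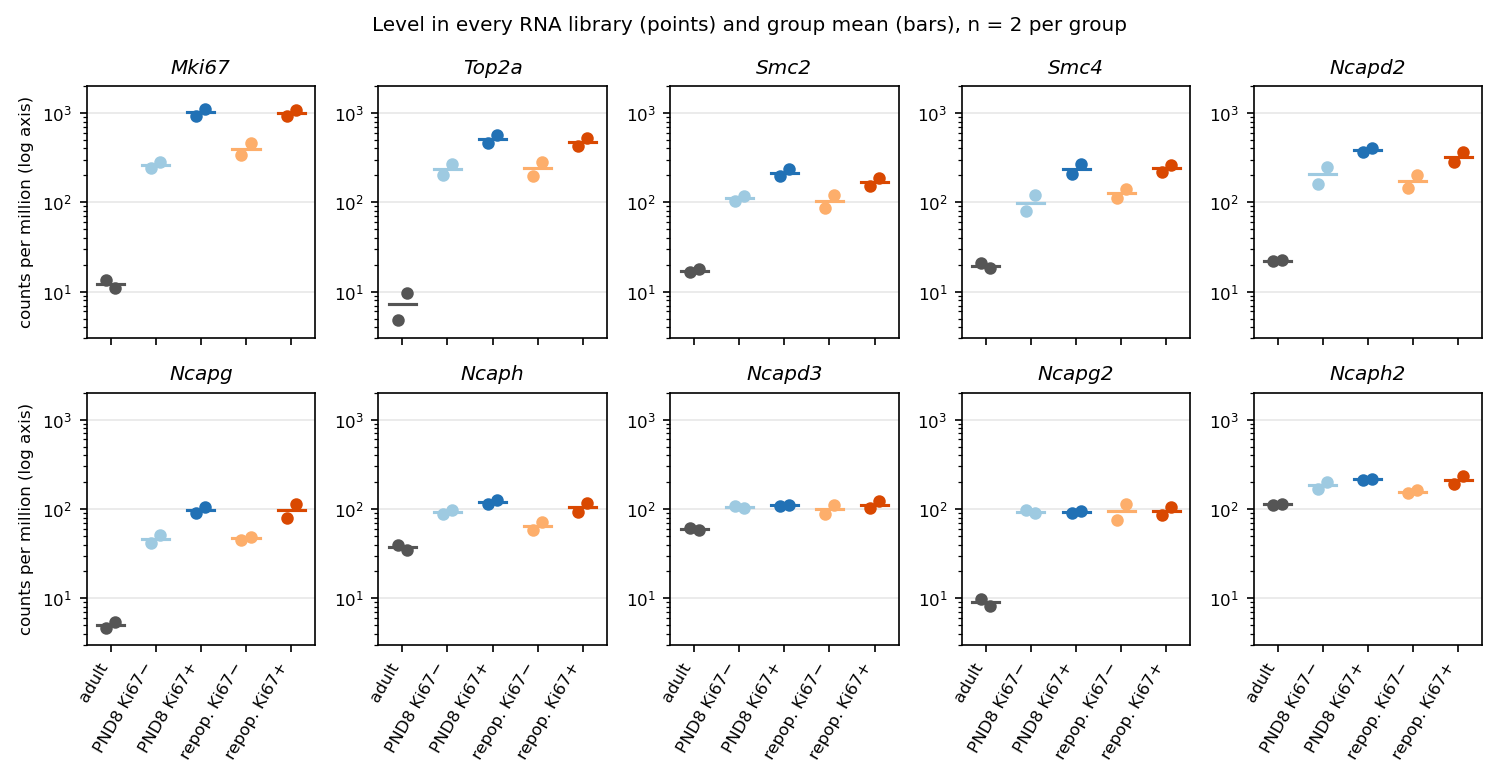
Level of the 10 genes in every RNA library, in CPM on a log axis, with points for the 2 libraries of a group and a bar for their mean. Mki67 runs from 11.0 in an adult library to 1107 in a PND8 Ki67-positive library, while Ncapd3 stays between 58.7 and 121.3.

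Against adult, all 10 genes were called higher in each of the other groups, taken as Ki67-positive then Ki67-negative at PND8 and the same in repopulation (edgeR's quasi-likelihood test, adjusted p under 0.05). The share of the 12230 tested genes called higher was 25.1%, 25.4%, 23.9% and 21.5% in that order. The median log2 fold change of the 10 was 3.63, 2.95, 3.51 and 2.82, and that of all tested genes was 0.00, 0.03, -0.01 and -0.01. When the test asked for a fold of at least 2 (glmTreat), 8, 7, 8 and 7 of the 10 were called, against 5.34%, 5.29%, 5.81% and 5.17% of all genes. These 4 comparisons share the adult libraries, which also differ from the others in genotype and in a numeric code in the header of the count table that the labels do not explain. Group, genotype and code cannot be told apart there.

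The size of the rise over adult differed widely within the set. In PND8 Ki67-positive cells Mki67 was higher by a log2 fold change of 6.37 (SE 0.20) and Top2a by 6.14 (SE 0.28). Of the shared core, Smc2 rose by 3.65 (SE 0.18) and Smc4 by 3.61 (SE 0.21). Of condensin I, Ncapg rose by 4.29 (SE 0.21) and Ncapd2 by 4.10 (SE 0.22), but the kleisin Ncaph by 1.69 (SE 0.14). Of condensin II, Ncapg2 rose by 3.35 (SE 0.20), while the kleisin Ncaph2 rose by 0.93 (SE 0.11) and Ncapd3 by 0.87 (SE 0.12). All adjusted p-values were at most 5.0e-05 by edgeR. Both kleisins and Ncapd3 had the smallest rises of the 10, and Ncapg2 was the only subunit of condensin II with a rise near those of the SMC core.

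The 3 genes with the smallest rises were those with the most RNA in adult cells. Levels of different genes were compared per length, in the deposited TPM. In adult libraries Ncaph2 led at 51.5 ± 1.68 TPM (SD, n = 2), followed by Ncaph at 21.0 ± 1.76 and Ncapd3 at 16.5 ± 0.547. Ncapd2, Smc4 and Smc2 lay at 7.48 ± 0.153, 6.86 ± 0.612 and 4.71 ± 0.191 TPM, and no neighbours among these first 6 overlapped. The last 4, Top2a (2.13 ± 1.00), Ncapg2 (2.09 ± 0.293), Ncapg (2.05 ± 0.211) and Mki67 (1.83 ± 0.262 TPM), could not be ordered, because the libraries of each overlapped those of the next. In PND8 Ki67-positive cells the order was led instead by Mki67 at 151 ± 19.1 TPM, Top2a at 149 ± 20.9 and Ncapd2 at 128 ± 8.24, of which Mki67 and Top2a overlapped, and ended with Ncapg2 at 21.3 ± 0.441. In repopulating Ki67-positive cells Mki67 (143 ± 13.5), Top2a (131 ± 17.1) and Ncapd2 (103 ± 15.9 TPM) stood first, with overlap between Mki67 and Top2a and between Ncapd2 and the next gene, Ncaph2 (91.0 ± 12.3), and Ncapg2 (20.9 ± 2.82) was again last. In both Ki67-negative groups Ncaph2 led, at 82.4 ± 10.1 TPM at PND8 and 68.1 ± 0.856 in repopulation, and Ncapg was last, at 18.9 ± 3.03 and 18.4 ± 0.378, although the libraries of both genes overlapped those of their neighbours in the order. Mki67 took the fifth place of the PND8 Ki67-negative order at 38.8 ± 4.61 TPM, and the third of the repopulating Ki67-negative order at 56.9 ± 11.1, but its libraries overlapped those of Smc4 below it in the first and of both Top2a and Ncapd2 in the second. For Ncaph2 the TPM table names another transcript than the count table, so its place rests on a different length there, but RPKM computed from the counts gave the same order of the 10 genes in all 5 groups.

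Comparing Ki67-positive with Ki67-negative cells of the same age asked which members followed the sort. At PND8, 6 of the 10 genes were called higher in Ki67-positive cells and none lower, where 2.75% of all tested genes were called higher. Mki67 is among the genes called here and in repopulation and enters both medians, although its call follows from the sort. The median log2 fold change of the 10 was 0.92, and that of all genes was -0.03. Only Mki67, the gene sorted on, passed a test for a fold of at least 2, as did 0.392% of all genes. In repopulation 7 of the 10 were called higher and none lower, against a background of 1.87%, with a median of 0.81 against -0.004. There none passed the test for a fold of at least 2 (glmTreat in edgeR, 0.253% of all genes, and 1 member had an unadjusted p under 0.05). The Ki67-positive libraries also carried more RNA of 6 G2/M genes, at 844 to 970 CPM in sum against 136 to 220 at PND8 and at 665 to 814 against 157 to 210 in repopulation. Their 6 S phase genes summed to 570 to 599 CPM against 860 to 927 at PND8, and to 499 to 652 against 557 to 800 in repopulation. The part of cell cycle stage in the members' differences was not tested.

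Mki67 differed between the sorted fractions by a log2 fold change of 1.95 (SE 0.15, adjusted p = 9.2e-06, edgeR) at PND8 and 1.34 (SE 0.15, adjusted p = 0.000198) in repopulation. Every Ki67-positive library lay above every Ki67-negative one, so none of the 8 sorted libraries went against its label. The Ki67-negative libraries were nevertheless 21.4-fold and 32.6-fold above adult for Mki67, in the order PND8 and repopulation. Top2a was higher in Ki67-positive cells by 1.12 (SE 0.20, adjusted p = 0.00363) at PND8 and 0.99 (SE 0.20, adjusted p = 0.0145) in repopulation.

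The SMC core followed the sort. Smc2 read 16.7 and 17.7 CPM in adult, 104.5 and 118.6 in PND8 Ki67-negative, 195 and 236 in PND8 Ki67-positive libraries, then 85.6 and 120.7 in repopulating Ki67-negative, and 152 and 186 in repopulating Ki67-positive libraries. Smc4 read 79.0 and 119.2, 209 and 269, 110.5 and 140.6, and 218 and 263 CPM in the same groups, and 20.7 and 18.3 in adult. In neither gene did Ki67-positive and Ki67-negative libraries of one setting overlap. The log2 fold change of Smc2 was 0.95 (SE 0.15, adjusted p = 0.00176) at PND8 and 0.72 (SE 0.15, adjusted p = 0.0202) in repopulation, and that of Smc4 was 1.26 (SE 0.18, adjusted p = 0.000879) and 0.94 (SE 0.18, adjusted p = 0.0102) by edgeR.

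Of condensin I, both HEAT-repeat subunits followed the sort and the kleisin did so in repopulation. Ncapd2 read 21.9 and 22.6 CPM in adult, 159.9 and 249.7 in PND8 Ki67-negative and 364 and 401 in PND8 Ki67-positive libraries, then 146 and 201 and 285 and 363 in repopulation, with no overlap in either setting. Its log2 fold change was 0.90 (SE 0.18, adjusted p = 0.0103) and 0.91 (SE 0.19, adjusted p = 0.0173). Ncapg, which had the lowest count of the set, read 4.63 and 5.38 CPM in adult, 41.8 and 51.6 against 89.2 and 106 at PND8, and 45.5 and 48.9 against 79.7 and 113 in repopulation. Its libraries did not overlap either, and its log2 fold change was 1.06 (SE 0.16, adjusted p = 0.00141) and 1.03 (SE 0.16, adjusted p = 0.00313). The kleisin Ncaph read 39.3 and 35.1 CPM in adult, 87.4 and 96.4 against 114 and 126 at PND8, and 58.2 and 72.2 against 91.6 and 117.5 in repopulation. It was called in repopulation, with a log2 fold change of 0.68 (SE 0.14, adjusted p = 0.0147), and missed the threshold at PND8 with 0.38 (SE 0.13, adjusted p = 0.117), which does not show that the settings differ.

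Of condensin II, no subunit was called in either setting by edgeR, although Ncaph2 in repopulation lay at the threshold and was called under 6 alternatives. Ncapg2, the counterpart of Ncapg, read 9.95 and 8.19 CPM in adult, 96.5 and 90.5 in PND8 Ki67-negative, 91.3 and 94.7 in PND8 Ki67-positive libraries, then 75.6 and 114 in repopulating Ki67-negative, and 85.7 and 106 in repopulating Ki67-positive libraries. The fractions overlapped in both settings while all 8 libraries lay far above adult. Its log2 fold change between fractions was -0.01 at PND8 (95% interval -0.35 to 0.34) and 0.02 in repopulation (-0.33 to 0.37), and its rise over adult lay between 3.35 and 3.40 in all 4 groups. The intervals of Ncapg, 0.71 to 1.41 at PND8 and 0.68 to 1.38 in repopulation, lay wholly above those of Ncapg2, although the difference between genes was not tested. Ncapd3 read 61.2 and 58.7 CPM in adult, 107 and 102.5 against 109 and 110.2 at PND8, and 88.9 and 111 against 101.5 and 121.3 in repopulation, with log2 fold changes between fractions of 0.07 (-0.18 to 0.32) and 0.16 (-0.09 to 0.41). The kleisin Ncaph2 read 109.5 and 115 CPM in adult, 168 and 198 against 213 and 215 at PND8, and 150.5 and 162 against 189 and 234 in repopulation. Its libraries did not overlap, yet its log2 fold change of 0.22 (adjusted p = 0.27) at PND8 and 0.44 (adjusted p = 0.0505) in repopulation missed the threshold by edgeR. In repopulation Ncaph2 was called by DESeq2 (0.42, adjusted p = 0.0219), with library sizes only (adjusted p = 0.0497), without the filter on low counts (adjusted p = 0.000735), with a replicate block (adjusted p = 0.00548), with the header code in the model and without the first Ki67-positive library (adjusted p = 0.02).

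**Figure D2:**
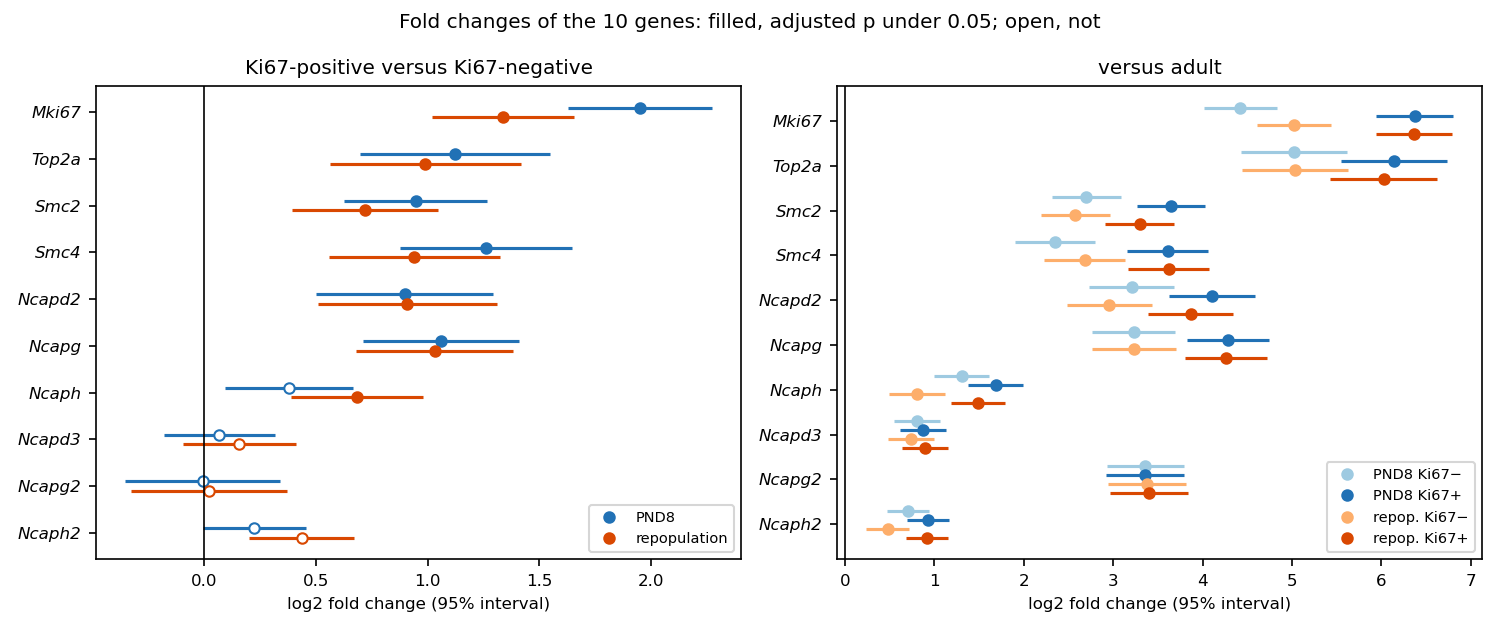
Log2 fold changes of the 10 genes with 95% intervals, between Ki67-positive and Ki67-negative cells (left) and against adult (right), filled where the adjusted p was under 0.05. Ncapg2 sits at -0.01 and 0.02 on the left and between 3.35 and 3.40 on the right.

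The calls in repopulation rested on few libraries. Without the first Ki67-negative library 1 of the 10 genes was called there (Mki67), as were 0.665% of all genes, and without the second Ki67-positive library 2 (Mki67 and Ncapg), against 0.814% of all genes, although all 7 kept their direction. Top2a also missed the threshold in repopulation by DESeq2 (adjusted p = 0.156). By limma on log2(TPM + 1) and log2(TPM + 0.1), Top2a (adjusted p = 0.063 and 0.127) and Smc2 (0.0577 and 0.0673) missed it there. Ncapd2 missed it by limma on log2(TPM + 0.1) (adjusted p = 0.0576). With only the groups compared in edgeR, Smc2 (adjusted p = 0.0711) and Ncaph (adjusted p = 0.0606) missed it. At PND8, Top2a and Ncapd2 fell below the threshold without the second Ki67-positive library, with adjusted p = 0.0516 and 0.0879, where 1.28% of all genes were called higher. With the header code in the model, 8 of the 10 were called higher in each setting, against 6.38% of all genes at PND8 and 4.94% in repopulation, Ncaph (adjusted p = 0.00232) and Ncaph2 (adjusted p = 0.0457) joining at PND8 and Ncaph2 (adjusted p = 0.00119) in repopulation. Within single codes the log2 differences between fractions were positive in all 4 pairs for every member except Ncapg2, which read -0.08, 0.06, 0.18 and -0.11. Of the 9 genes with a promoter sequence, the 5 with both CHR and CCAAT words were called between fractions in both settings. Mki67 is among these 5, and its call follows from the sort. Ncaph was called in 1 setting and Ncapd3, Ncapg2 and Ncaph2 in none, which is a description of 9 genes and no test.

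The Ki67 difference of the 2 settings was compared by an interaction term. No member was called, nor was any of the 12230 genes (0% by edgeR), with 1 member and 613 genes at an unadjusted p under 0.05. DESeq2 called no member and 3 genes. The member was Mki67, whose difference between fractions in repopulation, less that at PND8, was -0.61 on the log2 scale (SE 0.20, unadjusted p = 0.0102, adjusted p = 0.96). It was called with the header code in the model (adjusted p = 0.0315), as were 28 of 12230 genes (0.229%), and without a filter on low counts (adjusted p = 0.000745), as were 52 of 17073 (0.305%). Because the sort selected on Ki67, a difference in the sort and one between the settings cannot be told apart for Mki67 here. For the other members the interval of the interaction included 0.

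Repopulating cells were then set against PND8 cells of the same Ki67 class. Among Ki67-positive cells no member was called (edgeR, with 16.7% of all genes called higher and 14.2% lower), 1 was at an unadjusted p under 0.05, and DESeq2 called none. That member was Smc2, with 152 and 186 CPM in repopulation against 195 and 236 at PND8 and a log2 fold change of -0.35 (SE 0.15, adjusted p = 0.0894). Mki67 differed by -0.01 (95% interval -0.32 to 0.30) and Top2a by -0.12 (-0.53 to 0.30). The picture changed within a header code. The only pair of Ki67-positive libraries that shared one gave a lower value in repopulation for all 10 genes, from -0.12 for Ncapd3 to -0.63 for Smc2. With the code in the model 7 of the 10 were called lower, against 17.1% of all genes: Smc2 by -0.66, Ncapd2 by -0.64, Top2a by -0.49, Ncaph by -0.45, Smc4 by -0.37, Ncapg by -0.34 and Mki67 by -0.30. With 1 pair of libraries in the shared code, a difference between the settings and one between single libraries cannot be told apart. For Mki67, the gene sorted on, a difference in the sort cannot be told apart either.

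Among Ki67-negative cells Mki67 was higher in repopulation than at PND8 by 0.61 (SE 0.15, adjusted p = 0.00595, edgeR) and Ncaph was lower, with a log2 fold change of -0.50 (SE 0.14, adjusted p = 0.0114), where 18.0% of all genes were called higher and 18.6% lower. These fractions were sorted on Ki67 itself, so for Mki67 a difference in the sort and one between the settings cannot be told apart. Mki67 lost its call without the second repopulating library (adjusted p = 0.0775), and Ncaph without the first one (adjusted p = 0.14) or the second PND8 library (adjusted p = 0.0698). With the header code in the model Mki67 stayed higher at 0.30 (21.3% of all genes higher), and 5 members were called lower (22.4% of all genes): Ncaph by -0.74, Ncapd2 by -0.63, Smc2 by -0.44, Ncaph2 by -0.39 and Top2a by -0.37. The other 8 members did not reach the threshold in the pooled comparison, with Smc4 at 0.33 and Ncapd2 at -0.25 farthest from 0.

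Ratios within a library show how the balance of the paired subunits differed. The HEAT-repeat pair Ncapd2 to Ncapd3 stood at 0.436 and 0.470 in adult by TPM, 1.82 and 2.97 in PND8 Ki67-negative, 4.06 and 4.44 in PND8 Ki67-positive libraries, then 2.00 and 2.20 in repopulating Ki67-negative and 3.43 and 3.65 in repopulating Ki67-positive libraries. Ki67-positive libraries were highest and adult lowest, with no overlap between either and Ki67-negative libraries. The pair Ncapg to Ncapg2 stood at 0.828 and 1.17 in adult, 0.771 and 1.02 in PND8 Ki67-negative, 1.07 and 0.763 in repopulating Ki67-negative, but 1.74 and 2.00 in PND8 and 1.66 and 1.90 in repopulating Ki67-positive libraries. Here adult and Ki67-negative libraries overlapped and only Ki67-positive ones stood apart. The kleisin pair Ncaph to Ncaph2 ran from 0.374 in an adult to 0.726 in a PND8 Ki67-positive library and stayed below 1 throughout. Summed over 3 subunits each, condensin I stood to condensin II at 0.453 and 0.417 in adult, between 0.903 and 1.15 in the 4 Ki67-negative libraries and between 1.35 and 1.67 in the 4 Ki67-positive ones. These are ratios of RNA and not of protein or of assembled complex.

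**Figure D3:**
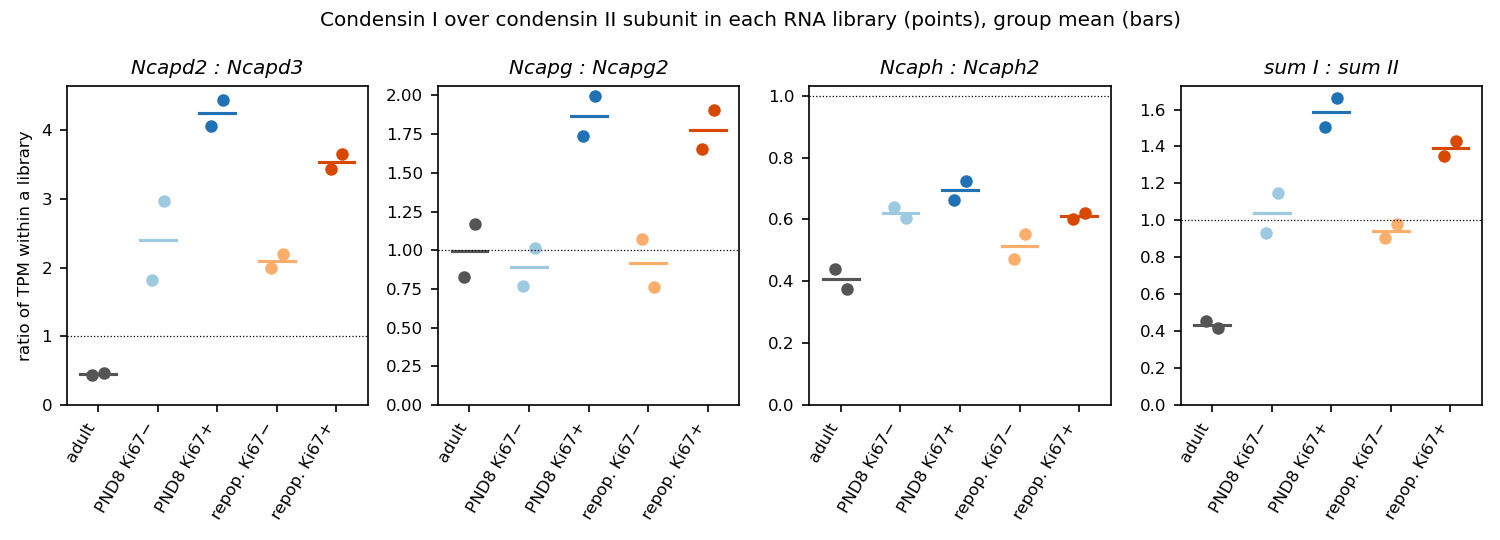
Ratio of condensin I to condensin II subunits in each RNA library, from TPM on a linear axis, with points for libraries, bars for group means and a dotted line at 1. The ratio of Ncapg to Ncapg2 is at least 1.66 in the 4 Ki67-positive libraries and at most 1.17 in the others, and that of Ncaph to Ncaph2 is below 1 in all 10.

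Top2b, the paralog of Top2a that is made in resting cells too, varied far less across the groups. It read 129.5 and 133 CPM in adult, 210 and 172 against 218 and 229 at PND8, and 161 and 168 against 174 and 178 in repopulation. Its log2 fold change between fractions was 0.23 (SE 0.09, adjusted p = 0.186) at PND8 and 0.10 (SE 0.10, adjusted p = 0.686) in repopulation. The ratio of Top2a to Top2b in TPM was 0.0405 and 0.0794 in adult, between 1.05 and 1.83 in Ki67-negative and between 2.29 and 3.18 in Ki67-positive libraries. Of the 6 other genes of topoisomerase function, none was called between fractions in either setting by edgeR or DESeq2, with 4 and 3 at an unadjusted p under 0.05 at PND8 and in repopulation. Of all tested genes edgeR called 2.75% and 1.87% higher, and DESeq2 5.74% and 3.36% in either direction. By edgeR 2410 and 1927 of the 12230 genes were at an unadjusted p under 0.05. At such shares, no call among 6 genes does not set them apart from the rest. The largest differences of the 6 at PND8 were -0.39 for Tdp2 and 0.33 for Tdp1, which remove trapped topoisomerase from DNA, and -0.31 for Top3a.

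Other chromosome complexes gave a comparison. Of 17 tested genes of cohesin, the ring that holds sister chromatids, 3 were called higher in Ki67-positive cells at PND8 and 3 in repopulation, none lower, against 2.75% and 1.87% of all genes, with medians of 0.12 and 0.10. At PND8 these were Sgo1, the protector of centromeric cohesin, by 1.55 (SE 0.26, adjusted p = 0.00275), Espl1, which encodes the protease separase, by 0.88 (SE 0.15, adjusted p = 0.00268), and Rad21, the kleisin that it cleaves, by 0.78 (SE 0.10, adjusted p = 0.00029). In repopulation Rad21 (0.79, SE 0.10, adjusted p = 0.000475), Espl1 (0.64, SE 0.15, adjusted p = 0.0354) and the ring subunit Smc1a (0.45, SE 0.10, adjusted p = 0.0322) were called, and Sgo1 gave 1.00 (SE 0.26, adjusted p = 0.0644). Of 7 genes of the SMC5/6 complex, which acts in DNA repair, none was called in either setting by edgeR or DESeq2, and 0 and 1 were at an unadjusted p under 0.05. Nsmce2 gave 0.43, Eid3 -0.29 and Nsmce4a -0.23 at PND8. Of 9 partners at the chromosome axis and surface, 2 were called higher in each setting against the same shares of all genes, and 2 and 6 were at an unadjusted p under 0.05, as were 2410 and 1927 of the 12230 genes. Those called were the chromokinesins Kif4, by 1.64 (SE 0.17, adjusted p = 6.2e-05) and 1.48 (SE 0.17, adjusted p = 0.000289), and Kif22, by 1.28 (SE 0.21, adjusted p = 0.00242) and 1.20 (SE 0.22, adjusted p = 0.00712). Mcph1, a regulator of condensin II, gave 0.30 (adjusted p = 0.327) at PND8. Kif4, which binds condensin I, read 1.04 and 0.611 CPM in adult and 105.8 and 113 in PND8 Ki67-positive libraries.

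Across the 10 libraries, the tested genes outside the set most like Mki67 by Pearson's r of log2 CPM were Dlgap5 (0.997), Sgo2a (0.997), Clic4 (0.996), Cdca2 (0.996) and Trim59 (0.996). Among the other members, the closest gene was Cenpi for Top2a (0.998), Ube2c for Smc4 (0.996), Melk for Ncapd2 (0.998), Bub1b for Ncapg (0.998), Drp2 for Ncaph (0.993), Tubb5 for Ncapd3 (0.994), Nsd2 for Ncapg2 (0.996) and Hmgn1 for Ncaph2 (0.989). Within the set, Smc2 and Ncapd2 were most alike (0.997) and Ncapg2 and Ncaph2 least (0.858). These values describe 10 points that share the gap between the adult libraries and the rest, which alone makes r high for any gene that differs there.

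The starts of the genes were then compared with the deposited peaks, counting a gene as marked when a peak overlapped the 1 kb on either side of its start in every list of a group. H3K27ac regions marked 7 of the 10 in adult cells, against 68.7% of tested genes, and the 3 without were Mki67, Top2a and Ncapg2. In PND8 Ki67-negative cells 9 were marked, all but Top2a (80.5% of tested genes), and after cuprizone 7 in Ki67-negative cells, without the same 3 as in adult (73.4%). All 10 were marked in Ki67-positive cells of PND8 (82.3%), cuprizone (76.8%) and repopulation (79.0%). Each peak value below is the authors' own count of tags, scaled to 10000000 tags in that list. Lists differ in how much of the library lies in peaks, from 32.6% to 69.7% for H3K27ac, so these values describe a list and are not compared between lists.

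**Figure D4:**
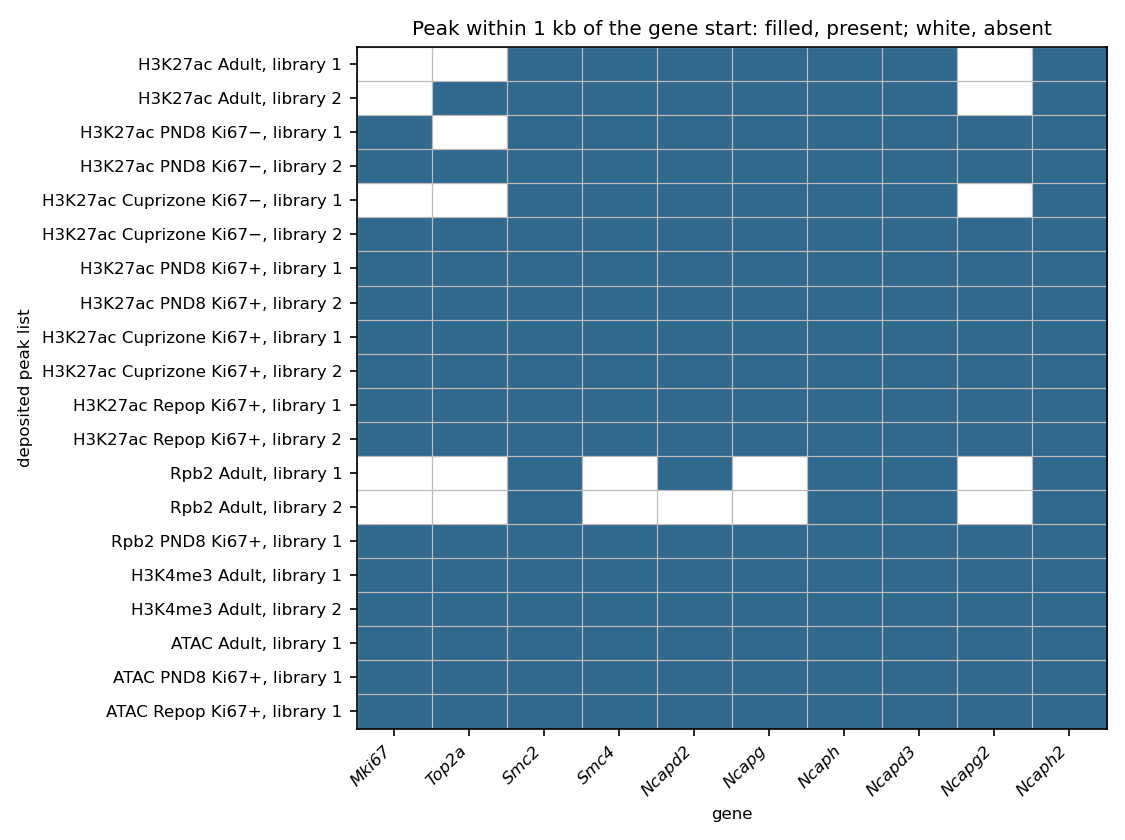
Presence of a deposited peak within 1 kb of the start of each gene (columns) in each of the 20 peak lists (rows), filled where present. H3K27ac is absent at Mki67 and Ncapg2 in both adult lists, and Rpb2 at 5 genes in both adult lists.

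At Mki67 neither adult list had an H3K27ac region. The PND8 Ki67-negative lists gave 117 and 131.5 tags, the PND8 Ki67-positive lists 309.7 and 332, the cuprizone Ki67-positive lists 142 and 260 and the repopulating lists 247 and 307.5, while after cuprizone 1 of 2 Ki67-negative lists held a region, with 67.6. In percentiles of their own lists these regions stood at 57.1 and 61.3 in PND8 Ki67-negative, 83.7 and 83.4 in PND8 Ki67-positive and 78.6 and 76.1 in repopulating cells. After cuprizone they stood at 54.9 and 72.7 in Ki67-positive lists, the first of these below both PND8 Ki67-negative lists, and at 35.4 in the 1 Ki67-negative list. At Ncapg2 the same lists had a region and the same 3 had none: PND8 Ki67-negative gave 91.3 and 87.4 tags, PND8 Ki67-positive 203 and 191, cuprizone Ki67-positive 59.1 and 118, and repopulation 170.3 and 158, while the second cuprizone Ki67-negative list gave 35.3. So with all peaks counted, H3K27ac was present and absent at Ncapg2 in the same lists as at Mki67. With only peaks at or above the median score of each list, Mki67 was marked in PND8 Ki67-positive cells and Ncapg2 in no H3K27ac group. At Top2a the second adult list and the second cuprizone Ki67-negative list held only a 500 bp region upstream of the start, with 16.7 and 21.2 tags at the 6.75 and 11.4 percentiles. Of the PND8 Ki67-negative lists 1 held a region across the start, with 41.4 tags. All 6 Ki67-positive lists did, with 44.6 to 175 tags.

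The other 7 genes had H3K27ac in every list. Ncapg came closest to having none, with 18.3 and 21.8 tags in adult, at the 10.5 and 10.9 percentiles of those lists, the lowest of the 7 genes there. Ncaph held 123 and 203.5 tags in adult, Ncapd3 146 and 164 and Ncaph2 197 and 183, all between the 58.7 and 73.3 percentiles of their lists. Ncapd2, with less RNA in adult than these, lay in the same range, with 147.7 and 161 tags at the 64.7 and 59.1 percentiles. Smc2 held 91.7 and 123 tags (percentiles 49.6 and 51.3) and Smc4 40.6 and 111.9 (27.3 and 48.6). In 4 of the 7 the start of another gene lies within 1 kb: Ift80 is 168 bp from that of Smc4, Mrpl51 614 bp from Ncapd2, Vps26b 81 bp from Ncapd3 and Lmf2 60 bp from Ncaph2. At these 4 a region cannot be assigned to either gene. The level of Vps26b in adult was 139 and 138 CPM and that of Lmf2 118 and 119.9. No other gene of the count table starts within 1 kb of Mki67, Top2a, Smc2, Ncapg, Ncaph or Ncapg2.

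**Figure D5:**
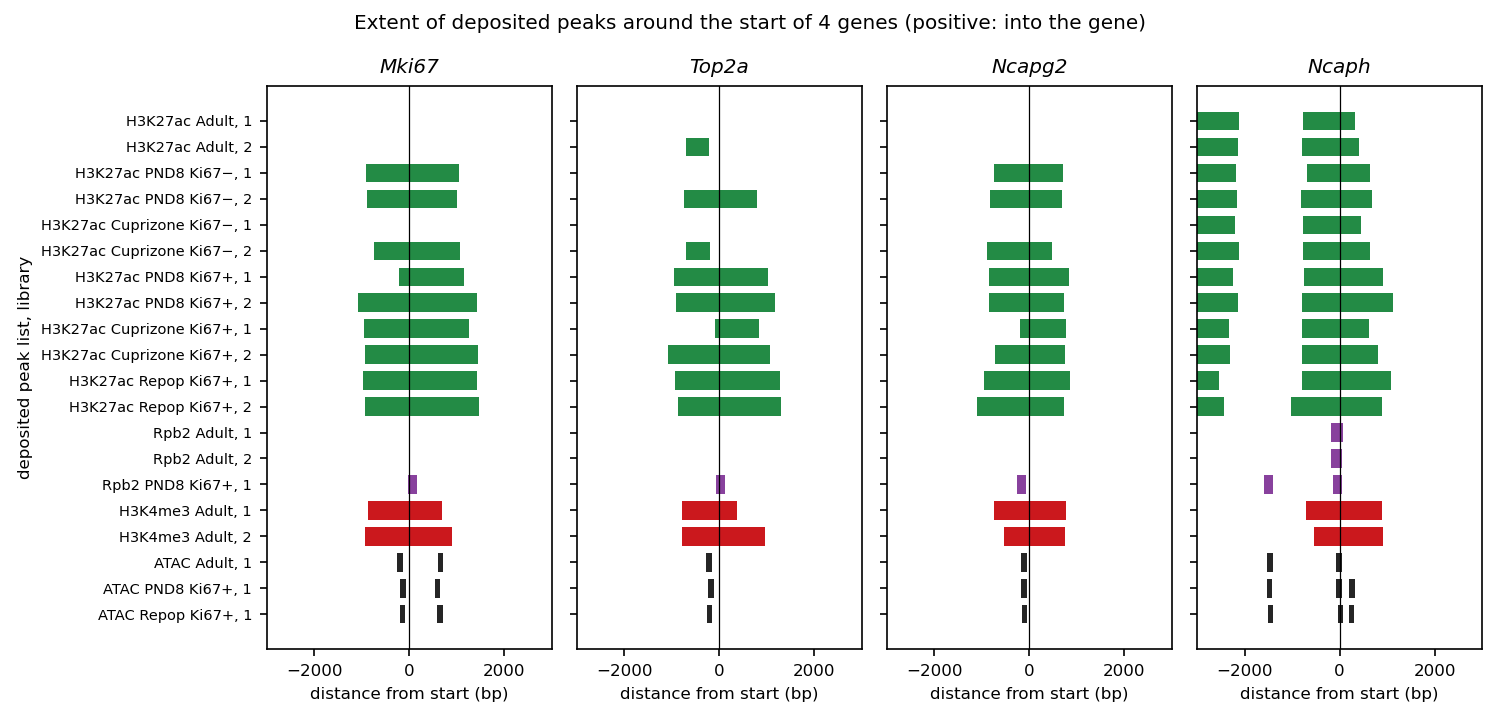
Extent of deposited peaks within 3000 bp of the start of 4 genes, in base pairs from the start with positive values into the gene, 1 row for each list and 1 colour for each assay. Mki67, Top2a and Ncapg2 lack regions of H3K27ac across the start in adult lists and hold H3K4me3 and open chromatin there, while Ncaph holds all of them.

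The starts without H3K27ac in adult cells still carried H3K4me3 and open chromatin. H3K4me3 marked all 10 genes in adult, against 89.8% of tested genes, with 337 and 356 tags at Mki67, 375.5 and 340.2 at Top2a and 534.5 and 552 at Ncapg2, between the 54.1 and 66.7 percentiles of the lists. Ncapd3 (1527 and 1518 tags) and Smc4 (1474 and 1415) had the highest values of the set. Each has the start of another gene within 1 kb, so these values cannot be assigned to the member alone. ATAC-seq peaks lay near all 10 starts in the single lists of adult (88.3% of tested genes), PND8 Ki67-positive (89.2%) and repopulating Ki67-positive cells (90.8%). At Mki67 the strongest one spanned -250 to -138 bp from the start in adult, -189 to -71 in the PND8 list and -193 to -79 in the repopulating one. All 3 cover the CCAAT words that lie between -188 and -162 of the printed promoter, and those of the PND8 and repopulating lists also cover the CHR words between -116 and -93. With 1 list a group and peaks of a fixed width, this shift has no replicate. At Ncapg2 the peak stood at the 98.7, 97.7 and 99.5 percentiles of the lists, the highest of the set in each, and ended at -55, -60 and -52. At Top2a, with percentiles of 60.8, 59.9 and 57.6, it covered the CCAAT words at -227 and -189 in all 3 lists.

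Rpb2 marked 4 of the 10 in both adult lists, namely Smc2, Ncaph, Ncapd3 and Ncaph2 (47.5% of tested genes), and all 10 in the PND8 Ki67-positive list (80.4%). The starts of Vps26b and Lmf2 lie 81 bp from Ncapd3 and 60 bp from Ncaph2, so a peak near these starts cannot be assigned to the member alone. Ncapd2 had a peak in 1 of the 2 adult lists, and Mki67, Top2a, Smc4, Ncapg and Ncapg2 had none there. In the PND8 list Mki67 held 68.2 tags at the 92.8 percentile and Top2a 51.4 at the 88.4, the lowest being Ncapg with 27.2 at the 71.5. The adult lists are shorter, with 14550 and 10544 peaks against 31602, so a peak missing there does not show less polymerase, and the PND8 group has no second library. Its peaks were called against an input labelled for H3K27ac, per the file header. Over the span of the genes the PND8 list placed 4 Rpb2 peaks in Ncapg2, all more than 1 kb from its start. At least as many lay in 9.16% of tested genes. Ncapd3 held 3, where 16.1% of tested genes held at least as many. These counts are not adjusted for length, and Ncapd3 (65140 bp) and Ncapg2 (58096 bp) have the longest spans of the 10. Peaks covered 1.31% of the span of Ncapg2, 0.875% of that of Ncapd3 and 2.03% of that of Ncaph2. The other 8 genes had 1 or 2 peaks, where the median tested gene had 1.

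Counts of 2 members could include reads of other genes of the count table. Ncapg overlaps Lcorl on the other strand over 3363 bp, and Ncaph2 overlaps Sco2 and Tymp on the other strand over 1220 and 1219 bp. The libraries were stranded, but whether counting used the strand is not given in the sources used here. These reads therefore cannot be told apart. In RefSeq, Smc2 also overlaps the pseudogene Tmc4-ps over 1678 bp. Top2a, Smc4, Ncapd2 and Ncaph overlap genes of noncoding RNA over at most 121 bp each. Whether these overlaps add reads was not tested.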

How the data were processed

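The authors deposited gene counts and TPM for 10 polyA RNA libraries and 20 peak lists. Counts were made with HOMER over exons of 1 transcript a gene (mm10), per the file headers. Deposited TPM values are scaled by transcript length, and 4532 genes have another transcript there than in the counts. STAR 2.7.0f, Bowtie2 2.3.4.1, HOMER 4.11 and DESeq2 are named, per the submitters' processing notes. Peaks were called for each library, and the signal in tags scaled to 10000000 and the peak score are the authors' own, per the file headers. The 16 input samples were not analysed here.

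Counts were fitted by the R 4.3.3 package edgeR 4.0.16 (TMM normalization, filterByExpr, quasi-likelihood test, all 10 libraries as 5 groups, Benjamini-Hochberg adjustment over 12230 genes, threshold 0.05). The labels call replicates independent but name no mice, so p-values measure the spread between these libraries. DESeq2 1.42.0, limma 3.58.1 on log2(TPM + 1) and log2(TPM + 0.1), other filters and scalings, a replicate block, the header code and each library left out were tried. CPM use the total counts over tested genes, multiplied by the TMM factor of the library. The script was tested on simulated counts. A start was marked when a peak overlapped 1 kb on either side by 1 bp. All 10 members were named, with the 5 most correlated genes computed for each; not every one is reported here. Members and gene lists were chosen with earlier results of these data known.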

Additional observations from a re-analysis of the deposited data

How the results depend on the processing

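Against adult, all 440 values of the members kept direction and call under every alternative other than the test for a fold of at least 2. Over all comparisons, 1008 of 1170 values kept both, 49 lost and 33 gained a call, and 78 values called under neither setting changed sign. A further pair of uncalled values near 0 changed sign and gained a call, both for repopulation against PND8 with the header code in the model. Smc4 among Ki67-positive cells went from 0.01 (adjusted p = 0.97, edgeR) to -0.37. Top2a among Ki67-negative cells went from 0.02 (adjusted p = 0.953, edgeR) to -0.37. The cause was not tested.

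Members called between Ki67 fractions numbered 4 to 6 at PND8 and 1 to 8 in repopulation when single libraries were left out (1.74% to 8.88% and 0.831% to 2.41% of all genes, either direction), 1 and 0 for a fold of at least 2, and 4 in repopulation by limma on log2(TPM + 0.1). That limma fit called 1.65% of all genes. For repopulation against PND8, Ki67-positive cells gave 1 with library sizes only, without the filter on low counts and with only the groups compared, and 7 with the header code. The shares of all genes called in these settings, either direction, were 32.3%, 23.8%, 37.0% and 36.0%. Ki67-negative cells gave 4 without the filter, 6 with the header code, 0 for a fold of at least 2 and 1 to 4 with single libraries left out (22.7% to 37.7% of all genes). In Ki67-negative cells the shares of all genes were 27.6% without the filter, 43.7% with the header code and 4.91% for a fold of at least 2. The interaction gave 1 without the filter and 1 with the header code, against 0.305% and 0.229% of all genes. With the replicate block 7 and 8 members were called between fractions at PND8 and in repopulation, and 1 and 4 for repopulation against PND8 in Ki67-positive and Ki67-negative cells, against 10.0%, 5.81%, 35.7% and 41.6% of all genes in that order. The block added Ncaph at PND8 (adjusted p = 0.0265) and Ncaph2 in repopulation (adjusted p = 0.00548). Same-numbered libraries correlated at 0.338 between the PND8 fractions, 0.263 between the repopulating fractions and -0.008 to 0.097 elsewhere. Same-numbered fractions of one setting also share a header code. The labels do not say what a number marks, and with 2 libraries a group the data cannot settle it, so the block stayed an alternative. Leaving out a library leaves 1 in its group, which is then assumed to vary like the others.

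With only peaks at or above the median score of each list, fewer members were marked in every list of most groups. For H3K27ac they fell to 2 in adult (28.8% of tested genes), 3 in PND8 Ki67-negative (42.1%) and 7 in PND8 Ki67-positive cells (44.6%). After cuprizone they fell to 1 in Ki67-negative (32.9%) and 4 in Ki67-positive cells (35.3%), and in repopulation to 5 (38.7%). Top2a and Ncapg2 were then marked in no H3K27ac group, and Mki67 only in PND8 Ki67-positive cells. Adult Rpb2 fell to 0 (31.4%), H3K4me3 to 2 (42.8%) and the PND8 ATAC-seq list to 9 (80.7%). All 10 stayed in the PND8 Rpb2 list (69.2%) and the adult (79.0%) and repopulating (83.9%) ATAC-seq lists. All 10 members passed the filter on low counts, so depth kept none out of the tests.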
